A study of Mus musculus with 6 samples.

Results

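Haemoglobin and erythroid genes are the transcripts of red blood cells and their precursors, and 7 of them were followed here through skin of mice treated for diabetic ulcers: the alpha globin genes Hba-a1 and Hba-a2, the beta globin genes Hbb-bs and Hbb-bt, Alas2, Slc4a1 and Bpgm. They were taken by gene symbol from a table of 57010 genes, and each symbol matched 1 row. Whole-tissue RNA was sequenced from 6 WT mice, 1 library per mouse, at the end of the experiment. In 3 mice the skin received a gel with CST (cortistatin in the series title, a neuropeptide related to somatostatin). The other 3 received a gel with Yoda1, a synthetic opener of the calcium channel Piezo1. Both groups were ulcer-bearing animals under drug, and skin without drug was not analysed here. The labels do not give strain, age or how diabetes was induced, nor how blood was treated when skin was taken. They tag the samples as skin and as keratinocytes. All 10 keratinocyte markers examined (Krt5, Krt14 and others) were measured at 12361 to 28975 summed FPKM per library, and all 8 fibroblast markers at 3654 to 11457, so the libraries held more than 1 cell type.

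Adult haemoglobin is a tetramer of a pair of alpha chains and a pair of beta chains, each with a haem group that binds oxygen. Erythroid precursors in bone marrow make the globin messages, and Alas2 encodes the erythroid enzyme that starts haem synthesis. Mammalian red cells lose their nucleus, but the youngest circulating ones, the reticulocytes, still carry globin and Alas2 RNA, so blood in a tissue brings these transcripts with it. Slc4a1 encodes band 3, the anion exchanger of the red cell membrane, and Bpgm encodes the enzyme that makes 2,3-bisphosphoglycerate, which lowers the oxygen affinity of haemoglobin. Bpgm is also made outside the erythroid lineage.

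The 4 globin genes are shown first by their promoters, since their levels moved together across the libraries, and Alas2 beside them. Each line gives bases 250 to 1 before the RefSeq transcription start on GRCm38.p6, 5′ to 3′ on the gene's strand. Capitals mark matches, on either strand, to a TATA-type motif (ATATAA), the CCAAT box, the box written CACCC, or a form of the GATA factor motif (GATAAG). Other forms of these motifs were not searched. Hba-a1 lies at chr11:32283422-32283671 on the plus strand, Hbb-bs at chr7:103827929-103828178 and Hbb-bt at chr7:103813924-103814173 on the minus strand, and Alas2 at chrX:150547167-150547416 on the plus strand.
Hba-a1: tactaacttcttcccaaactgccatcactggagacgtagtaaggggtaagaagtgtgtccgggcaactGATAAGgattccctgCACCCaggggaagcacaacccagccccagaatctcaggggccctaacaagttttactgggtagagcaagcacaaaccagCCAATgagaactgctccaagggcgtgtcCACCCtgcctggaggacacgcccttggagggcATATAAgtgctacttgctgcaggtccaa
Hbb-bs: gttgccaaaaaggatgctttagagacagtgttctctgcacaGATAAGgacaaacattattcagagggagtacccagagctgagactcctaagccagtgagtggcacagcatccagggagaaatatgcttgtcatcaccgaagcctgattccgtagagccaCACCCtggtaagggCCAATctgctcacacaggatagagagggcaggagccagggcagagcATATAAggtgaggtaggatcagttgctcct
Hbb-bt: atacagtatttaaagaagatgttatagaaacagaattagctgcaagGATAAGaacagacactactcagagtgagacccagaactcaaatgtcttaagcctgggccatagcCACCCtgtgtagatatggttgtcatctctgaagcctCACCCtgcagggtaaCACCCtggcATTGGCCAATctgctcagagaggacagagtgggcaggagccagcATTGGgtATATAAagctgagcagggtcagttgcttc
Alas2: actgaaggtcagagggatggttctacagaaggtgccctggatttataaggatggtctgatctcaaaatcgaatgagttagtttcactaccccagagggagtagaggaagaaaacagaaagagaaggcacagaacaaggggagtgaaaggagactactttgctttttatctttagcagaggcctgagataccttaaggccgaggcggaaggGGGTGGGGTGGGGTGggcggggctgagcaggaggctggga
All 4 globin windows held each of the 4 motifs, with ATATAA starting 28 to 31 bases before the start, whereas 0.14% of the 32851 mouse promoter windows of this length held all 4. Taken singly, ATATAA stood in 9.1%, CCAAT in 33.8%, CACCC in 52% and GATAAG in 6.55% of those windows. In Hbb-bt a CCAAT match on the plus strand directly follows one on the minus strand. The Hba-a2 window shared an unbroken run of 247 bases with that of Hba-a1 and is not printed. Alas2 held 3 CACCC matches, all on the minus strand, and none of the other 3 motifs as spelled here, and Bpgm held 3 CCAAT matches only. Slc4a1 was not among the 6 members with a promoter in the RefSeq table. A match is a match of letters, not a measured binding site.

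How far the paralogues can be told apart bears on every globin value. The coding sequences of Hba-a1 and Hba-a2 (429 bases) differ at 1 position, and those of Hbb-bs and Hbb-bt (444 bases) at 1 position. The coding windows of 90 bases that hold the difference, each inside 1 exon, are given here from GENCODE M21 on GRCm38, with the differing base in capitals. They lie at chr11:32284263-32284352 (Hba-a1, plus strand), chr11:32297080-32297169 (Hba-a2, plus strand), chr7:103826692-103826781 (Hbb-bs, minus strand) and chr7:103812683-103812772 (Hbb-bt, minus strand).
Hba-a1: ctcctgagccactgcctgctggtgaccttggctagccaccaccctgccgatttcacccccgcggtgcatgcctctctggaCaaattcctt
Hba-a2: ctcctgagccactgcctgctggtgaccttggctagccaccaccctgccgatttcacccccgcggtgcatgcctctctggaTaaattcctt
Hbb-bs: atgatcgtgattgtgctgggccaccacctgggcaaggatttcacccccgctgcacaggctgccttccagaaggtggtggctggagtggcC
Hbb-bt: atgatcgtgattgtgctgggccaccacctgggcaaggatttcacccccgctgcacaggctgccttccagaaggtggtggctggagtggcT
Of all stretches of 100 bases in the full Hba-a1 transcript 56.5% also occur in Hba-a2, and 74.5% the other way round. The shares are 62.6% of Hbb-bs stretches found in Hbb-bt and 54.8% the other way round. Read length, and how reads that match both copies were assigned, were not stated, so the level of a single copy is uncertain while the alpha and beta sums are less so.

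Values are FPKM, which scale the fragments of a gene by its length and by library depth, and that depth behind them was recovered at 23791352 to 29620526 reads per library. The kilobase used by the authors equalled the mean length of the gene's GENCODE transcripts in 93.8% of 14016 well-covered genes, and it was 460 bases for Hbb-bs, 597 for Hba-a1, 524 for Hba-a2, 703 for Hbb-bt, 1246 for Alas2, 1194 for Slc4a1 and 1175 for Bpgm. Levels set between genes below rest on those lengths. CST mouse 1 and Yoda1 mouse 3 were richest in mitochondrially encoded transcripts (6.72% and 7.61% of summed FPKM), with 3.25% to 3.81% elsewhere. The members' log2 changes are therefore also given without these 2 libraries.

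Haemoglobin transcripts were higher in CST skin than in Yoda1 skin by 2.15- to 2.74-fold per gene, and the mRNA of the haem enzyme Alas2 by 1.82-fold (folds on the log2(FPKM + 1) scale), but none of these differences passed the adjusted threshold of 0.05. Summed over the 4 globins, the level was 1318, 2725 and 962 FPKM in CST skin (mice 1 to 3), against 330, 733 and 744 FPKM in Yoda1 skin. CST mouse 2 was the highest and Yoda1 mouse 1 the lowest, and the groups did not overlap. As a share of all reads the globins made up 0.0646%, 0.136% and 0.0483% in CST libraries and 0.0165%, 0.0368% and 0.0369% in Yoda1 libraries. In bulk skin, fewer red cells and less globin RNA per red cell cannot be told apart.

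**Figure D1:**
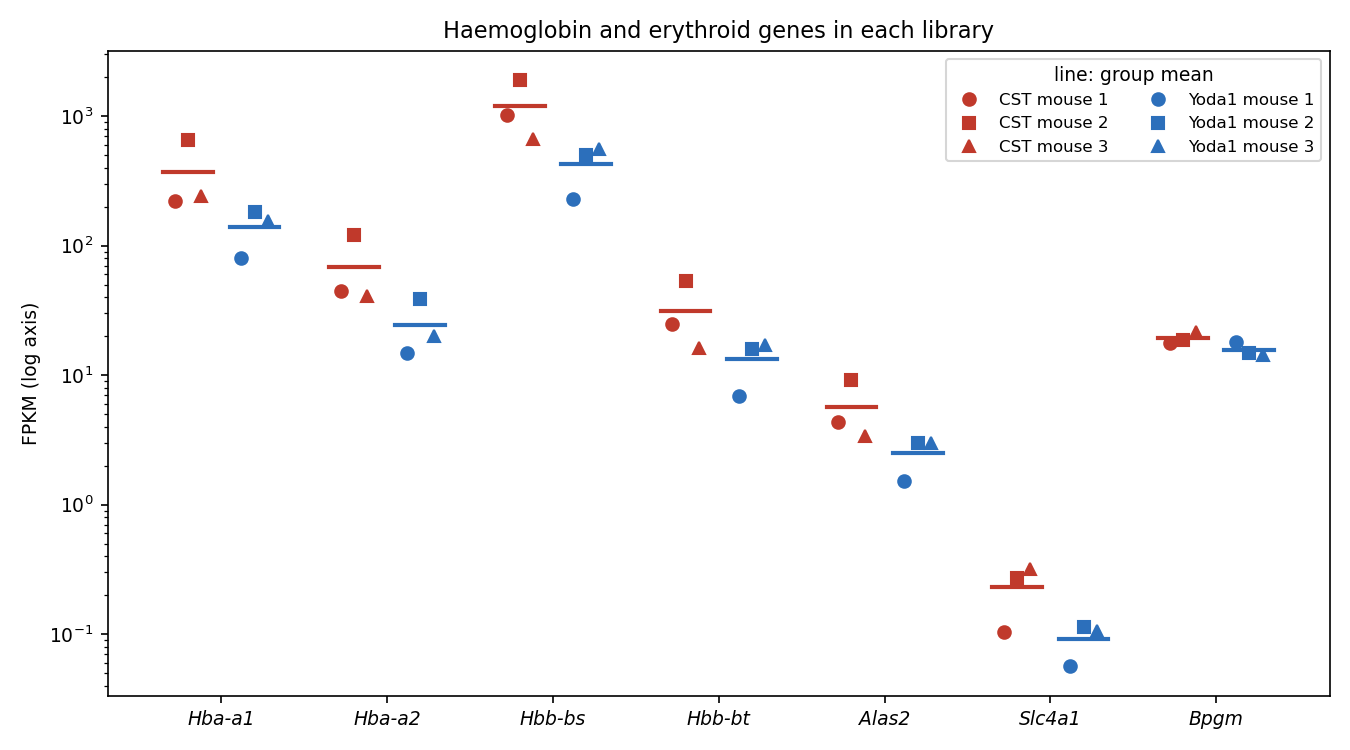
FPKM (log axis) of the 7 haemoglobin and erythroid genes in each library, with CST (red) left of Yoda1 (blue) and 1 marker shape per mouse number. Lines are group means over 3 mice; CST mouse 2 is the highest library for the 4 globins and Alas2, and Yoda1 mouse 1 the lowest, while Bpgm stays between 14.2 and 21.7 FPKM.

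Hbb-bs (ENSMUSG00000052305, chromosome 7, 103826534 to 103828096 on GRCm38, minus strand), the major adult beta chain gene here, measured 1027, 1897 and 662 FPKM in CST skin, against 227, 497 and 553 FPKM in Yoda1 skin. Each CST library lay above each Yoda1 library. The means were 1196 ± 634 and 426 ± 174 (SD, n = 3 each). On the log2(FPKM + 1) scale, CST exceeded Yoda1 by 1.45 with an SE of 0.47 (limma, Benjamini-Hochberg adjusted p = 0.753). These values rest on 8848 to 24178 reads in CST libraries and 3098 to 6706 reads in Yoda1 libraries, so counting error was small beside the spread between mice.

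Hbb-bt (ENSMUSG00000073940, chromosome 7, 103812524 to 103813996, minus strand), the second adult beta gene, stood far lower, at 24.8, 52.9 and 16.2 FPKM in CST skin, against 6.92, 15.8 and 17.0 FPKM in Yoda1 skin. CST mouse 3 lay between the Yoda1 values, so the groups overlapped. Its log2 change was 1.11 with an SE of 0.48 (limma, adjusted p = 1.00).

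Hba-a1 (ENSMUSG00000069919, chromosome 11, 32283511 to 32284465, plus strand) encodes an alpha chain and measured 221, 654 and 243 FPKM in CST skin, against 80.5, 180 and 155 FPKM in Yoda1 skin. The groups did not overlap, although CST mice 1 and 3 lay much nearer the Yoda1 libraries than CST mouse 2 did. The means were 373 ± 244 and 138 ± 51.8 (SD, n = 3 each), and the log2 change was 1.32 with an SE of 0.47 (limma, adjusted p = 0.887). Hba-a2 (ENSMUSG00000069917, chromosome 11, 32296489 to 32297298, plus strand), its near copy, measured 44.9, 121 and 40.7 FPKM in CST skin, against 14.9, 39.1 and 19.9 FPKM in Yoda1 skin. Here CST mouse 3 and Yoda1 mouse 2 nearly met. The log2 change was 1.38 with an SE of 0.49 (limma, adjusted p = 0.853).

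Alas2 (ENSMUSG00000025270, chromosome X, 150547375 to 150570638, plus strand) measured 4.36, 9.18 and 3.40 FPKM in CST skin, against 1.52, 2.98 and 3.00 FPKM in Yoda1 skin. The order of the libraries was that of Hbb-bs, with no overlap between the groups and a narrow gap between CST mouse 3 and Yoda1 mouse 3. The log2 change was 0.86 with an SE of 0.36 (limma, adjusted p = 1.00), from 123 to 317 reads in CST libraries and 56 to 109 reads in Yoda1 libraries.

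Slc4a1 (ENSMUSG00000006574, chromosome 11, 102348824 to 102366203, minus strand) was close to the detection limit. It had 3, 9 and 11 reads in CST libraries (0.104, 0.272 and 0.317 FPKM), against 2, 4 and 3 reads in Yoda1 libraries (0.0566, 0.114 and 0.106 FPKM). Exact 95% Poisson intervals ran from 0.0215 to 0.304 FPKM in CST mouse 1 and from 0.158 to 0.568 FPKM in CST mouse 3, against 0.00685 to 0.204 FPKM in Yoda1 mouse 1. The totals were 23 reads over the CST libraries and 9 over the Yoda1 libraries, and the ratio of mean FPKM was 2.51, but CST mouse 1 lay below Yoda1 mice 2 and 3, so the groups overlapped. With a mean of 0.162 FPKM it lay under the minimum of 1 FPKM for testing, and the difference of the group means of log2(FPKM + 1) was 0.17; 6 of the 7 members passed that filter.

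Bpgm (ENSMUSG00000038871, chromosome 6, 34476207 to 34505613, plus strand) behaved apart from the globins. It measured 17.6, 18.7 and 21.7 FPKM in CST skin, against 18.0, 14.9 and 14.2 FPKM in Yoda1 skin. The log2 change was 0.29 with an SE of 0.20 (limma, adjusted p = 1.00). The groups overlapped, since Yoda1 mouse 1, the library lowest in globin, lay above CST mouse 1. Over all 6 libraries Bpgm varied by 1.52-fold, compared with 7.65- to 8.34-fold for each globin and 6.05-fold for Alas2.

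Over the 14588 genes that averaged 1 FPKM or more, limma called 0 (0% of those tested, smallest adjusted p = 0.521), so 0 of the 6 tested members passed. Before adjustment 584 genes (4%) had a p under 0.05, 469 of them higher in CST (3.21%), and limma on recovered reads (voom) likewise called 0. Of the 6 tested members, 5 had an unadjusted p under 0.05, between 0.0157 for Hbb-bs and 0.0491 for Hbb-bt, all higher in CST. This count hung on single libraries, since dropping either CST mouse 2 or Yoda1 mouse 1 brought it down to 0. Other choices of processing or libraries gave counts from 2 to 5, with 3 under voom. Each CST library lay above each Yoda1 library in 4 members (Hbb-bs, Hba-a1, Hba-a2 and Alas2), against 4.52% of tested genes (6.59% when either direction counts). All 7 members had a higher mean in CST, and 47.2% of tested genes had a log2 change above 0. A log2 change of at least 1 in favour of CST was met by the 4 globins and by 2.74% of tested genes. The median log2 change was 1.11 over all 7 members and -0.01 over all tested genes. The globins and Alas2 are made by the same erythroid precursors, and the globin copies can share reads, so these counts are not independent observations. When limma weighted the libraries by their estimated quality, 5 members passed (the 4 globins and Alas2), with 9.24% of tested genes called and 4.49% called higher in CST; that fit gave Yoda1 mouse 1, the library lowest in globin, a weight of 12.8, against 0.193 to 2.47 for the others.

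A single library had a strong hold on the size of the differences. Without CST mouse 2 the log2 change was 1.05 for Hbb-bs, 0.82 for Hba-a1, 0.88 for Hba-a2, 0.65 for Hbb-bt and 0.50 for Alas2. Without Yoda1 mouse 1 it was 1.05, 0.97, 1.09, 0.73 and 0.64 for the same genes. Hbb-bs reached its highest value, 1.81, without CST mouse 3. No member was called in any of these fits, and none changed sign. Without CST mouse 1 and Yoda1 mouse 3, the libraries highest in mitochondrial transcripts, the values were 1.73 for Hbb-bs, 1.72 for Hba-a1, 1.50 for Hba-a2, 1.40 for Hbb-bt, 1.08 for Alas2 and 0.28 for Bpgm.

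**Figure D2:**
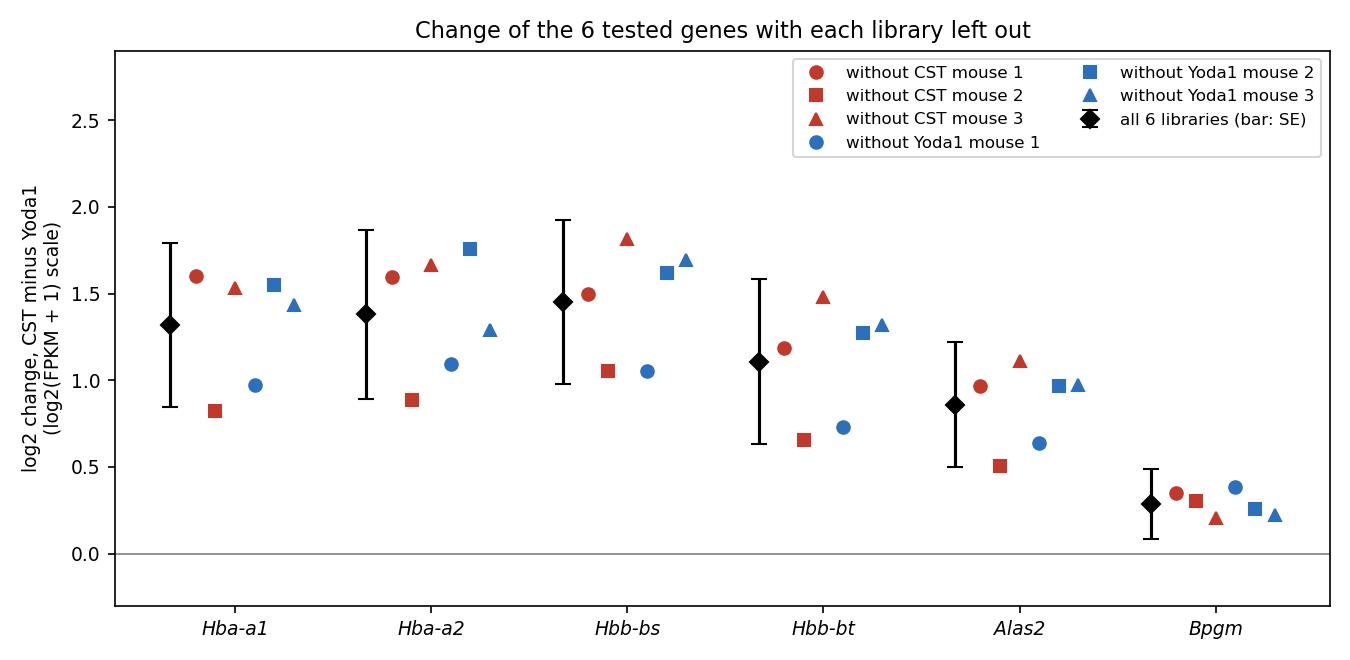
Log2 change of FPKM + 1 (CST minus Yoda1) for the 6 tested genes with all 6 libraries (black, bar: SE) and with each library left out. Leaving out CST mouse 2 or Yoda1 mouse 1 gives the lowest values for the globins and Alas2, down to 0.65 among the globins (Hbb-bt) and 0.50 for Alas2, and all values stay above 0.

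The levels of the 7 genes kept nearly the same order within each library. Hbb-bs was the highest in all 6, at 2.72 to 4.64 times the FPKM of Hba-a1, followed by Hba-a1 at 4.61 to 7.77 times Hba-a2. Hba-a2 exceeded Hbb-bt in 6 of 6 libraries, by as little as 1.17-fold in Yoda1 mouse 3. Hbb-bt and Bpgm were not separated, with Hbb-bt higher in 4 of 6. Alas2 and then Slc4a1 were the lowest in every library.

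Alas2 followed the globins closely. Relative to 1000 FPKM of summed globin it measured 3.31, 3.37 and 3.53 in CST libraries, against 4.60, 4.07 and 4.03 in Yoda1 libraries. The ratio kept within a narrow band, and each CST value lay below each Yoda1 value. In reads per 1000 globin reads it was 8.41, 8.39 and 8.78 in CST libraries, against 11.4, 10.1 and 10.1 in Yoda1 libraries. The 95% Wilson interval of every CST library overlapped that of every Yoda1 library, as for CST mouse 3 (7.35 to 10.5) and Yoda1 mouse 2 (8.37 to 12.2). Bpgm per 1000 FPKM of globin ranged from 6.88 to 22.5 in CST libraries and from 19.1 to 54.5 in Yoda1 libraries.

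**Figure D3:**
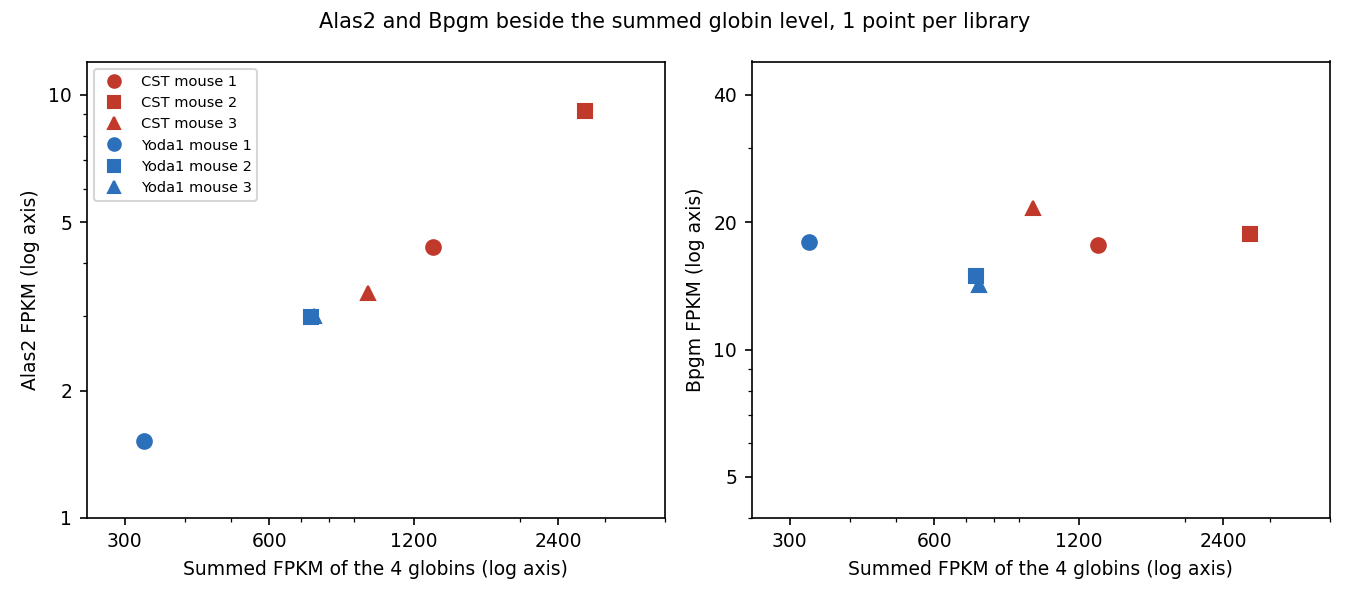
FPKM of Alas2 (left) and Bpgm (right) against the summed FPKM of the 4 globins, all axes logarithmic, 1 point per library. Alas2 climbs with the globin sum, reaching 9.18 FPKM in CST mouse 2 with 1.52 FPKM in Yoda1 mouse 1, while Bpgm stays between 14.2 and 21.7 FPKM.

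Over the 21 pairs of members, Pearson's r of log2(FPKM + 1) across the 6 libraries was 0.92 to 0.99 among the 4 globins and Alas2. The exact permutation p, adjusted over the 21 pairs, ran from 0.0175 to 0.0467 for these 10 pairs, and Spearman's rho from 0.71 to 1.00 with adjusted exact p of 0.0583 to 0.26. Libraries were permuted across both groups, so a shared group difference can lower these p. Reads shared between the near copies can do so too. Hbb-bs and Alas2 ordered the libraries identically (r = 0.98, rho = 1.00, exact permutation p = 0.00139 and 0.00278, adjusted 0.0175 and 0.0583). Without the 2 libraries farthest from the median, CST mouse 2 and Yoda1 mouse 1, r was 0.99 for that pair and 0.93 for Hbb-bs with Hbb-bt. It was only 0.32 for Hba-a1 with Hbb-bt and 0.62 for Hba-a1 with Hbb-bs, so the relation between alpha and beta chains rested largely on those libraries. With group means removed, r among these 10 pairs was 0.82 to 1.00, for which no p was computed. Pairs with Bpgm had r of 0.13 to 0.68 (lowest adjusted exact permutation p = 0.247).

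Among the 14584 tested genes that are not globin members, Alas2 had the highest r to the mean of the 4 globins (0.99), and Bpgm ranked at 3246 with r = 0.27. Genes outside the members were ranked with Gm, Rik and other clone or predicted names left out, which kept 12977 tested genes. The most alike of these were Msi2, an RNA-binding protein gene (r = 0.98), Tmem183a (0.98) and Stim1, the calcium sensor of the endoplasmic reticulum (0.97). They were followed by Tmem116 (0.96), Ssx2ip (0.94), Ppm1b (0.94), Ovgp1 (0.94), Pam16l (0.94), Sync (0.93) and Nav2 (0.92). These r, over 6 libraries, were picked as the highest of many and describe likeness only. Msi2 spanned 13.5 to 21.5 FPKM in CST skin and 9.84 to 13.9 FPKM in Yoda1 skin, a far narrower range than any globin.

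The balance between the chains differed among libraries. Of globin reads, alpha took 24.1%, 33.3% and 34.5% in the CST libraries (mice 1 to 3), against 33.8%, 34.8% and 27.8% in the Yoda1 libraries. The lowest 2, CST mouse 1 (95% Wilson interval 23.5 to 24.8) and Yoda1 mouse 3 (26.9 to 28.8), lay outside the intervals of the other 4 libraries, which ran from 32.5 to 35.7. They are also the 2 libraries highest in mitochondrial transcripts, whose part in this was not tested. The alpha to beta ratio in FPKM averaged 0.356 ± 0.0901 in CST skin and 0.380 ± 0.0649 in Yoda1 skin (SD, n = 3 each), a difference within the spread.

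**Figure D4:**
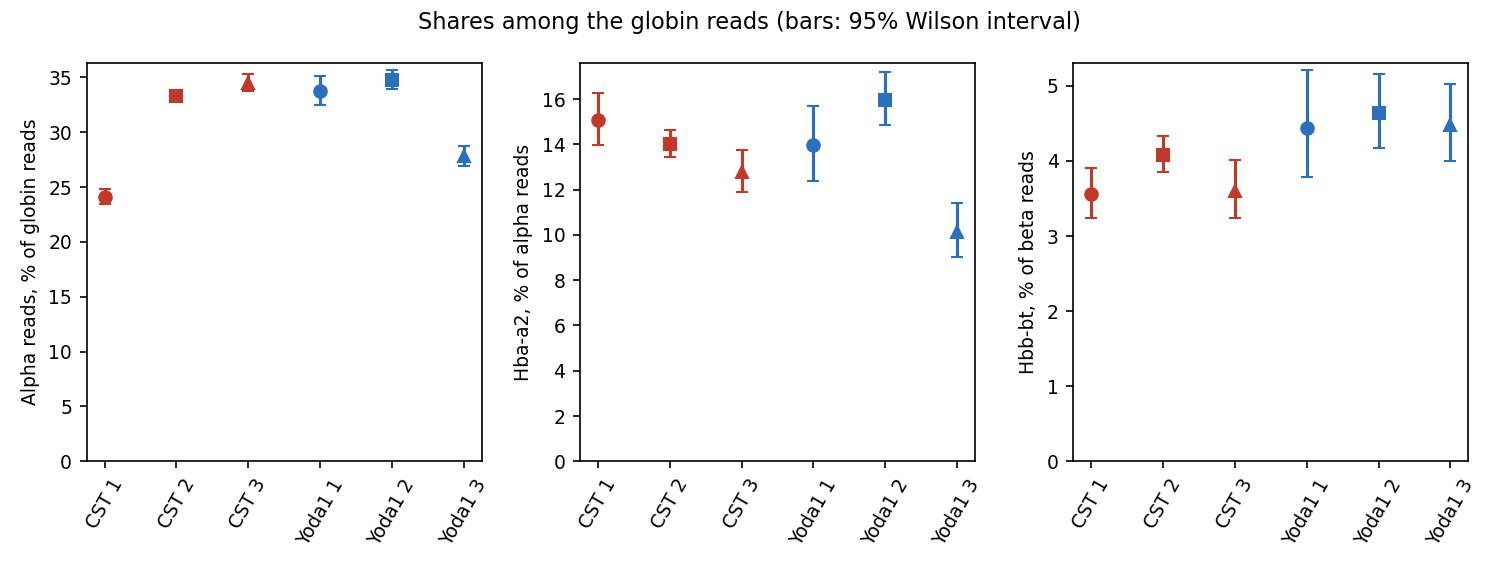
Share of alpha reads among globin reads (left), of Hba-a2 among alpha reads (middle) and of Hbb-bt among beta reads (right) per library, in percent, with 95% Wilson intervals for counting error; CST in red, Yoda1 in blue. CST mouse 1 and Yoda1 mouse 3 stand low for alpha, and Yoda1 mouse 3 for Hba-a2. For Hbb-bt the values of the 3 CST libraries lie below those of the 3 Yoda1 libraries, with many intervals overlapping.

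Within the beta pair, Hbb-bt made up 3.55%, 4.09% and 3.61% of reads in CST libraries, against 4.44%, 4.64% and 4.48% in Yoda1 libraries. The values of the groups did not overlap, but many of their intervals did. That of CST mouse 2 (3.85 to 4.34) overlapped the interval of every Yoda1 library. That of Yoda1 mouse 1 (3.78 to 5.21) overlapped the interval of every CST library, and those of CST mouse 3 and Yoda1 mouse 3 just met. In FPKM the ratio of Hbb-bs to Hbb-bt averaged 39.4 ± 3.07 in CST skin and 32.3 ± 0.756 in Yoda1 skin (SD, n = 3 each). Within the alpha pair, Hba-a2 took 15.1%, 14.0% and 12.8% of reads in CST libraries, against 14.0%, 16.0% and 10.2% in Yoda1 libraries. Yoda1 mouse 3 (9.02 to 11.4) stood below the intervals of the other 5. With 1 coding difference per pair, these splits depend on how the authors' counting assigned shared reads.

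The embryonic globin genes Hba-x, Hbb-y, Hbb-bh0, Hbb-bh1 and Hbb-bh2 were all listed at 0 in all 6 libraries. The theta globin genes Hbq1a and Hbq1b had 4 and 5 reads over the 3 CST libraries, and 2 and 0 reads over the 3 Yoda1 libraries. Gata1 and Klf1, the master transcription factors of erythroid precursors, had 17 and 20 reads in all in CST libraries, and 17 and 16 in Yoda1 libraries. In contrast the globins held 14016 to 37788 reads per CST library and 4896 to 10786 reads per Yoda1 library.

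The wider erythroid programme was described by 5 lists. Of 68 genes in them (other globins with their chaperone, erythroid regulators, haem synthesis, red cell membrane, red cell cytoplasm and maturation), 40 were tested, 24 had a positive log2 change and 0 were called. Their median log2 change was 0.02, with 8 genes listed at 0 throughout, beside -0.01 over all tested genes. In 4 of them each CST library lay above each Yoda1 library (10%, against 4.52% of tested genes), and in 0 the reverse (against 2.08%). The 4 were Abcb10, Sptb, Tmod1 and Ank1, of which all but Abcb10 are also made in striated muscle, as described below.

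Haem synthesis genes were nearly level, with 8 of 13 tested members positive and a median of 0.01. The mitochondrial iron importer gene Slc25a37 measured 18.9, 14.1 and 9.65 FPKM in CST skin, against 10.8, 7.04 and 12.4 FPKM in Yoda1 skin (log2 change 0.45). Abcb10, a mitochondrial transporter gene of erythroid cells, had a log2 change of 0.23 and Cpox, the coproporphyrinogen oxidase gene, 0.17. Among erythroid regulators 3 of 6 tested genes were positive, with a median of -0.10. Nfe2, a factor of erythroid and megakaryocyte genes, had a log2 change of 0.69. For Bcl11a, a repressor of embryonic globins, it was 0.44, and for Lmo2, an adaptor of transcription factor complexes, -0.45.

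Red cell membrane genes had a median of 0.24 over 9 tested of 20, with 5 positive, and Rhag and Kel at 0 in all libraries. The 3 with the smallest p were Sptb (beta spectrin, log2 change 1.19, adjusted p = 0.521 by limma), Tmod1 (tropomodulin, 2.34, 0.602) and Ank1 (ankyrin, 1.86, 0.729), which are known to be made in striated muscle as well as in red cells. Tmod1 measured 42.5, 43.3 and 38.2 FPKM in CST skin, against 2.95, 26.7 and 4.28 FPKM in Yoda1 skin. Ank1 measured 12.9, 9.81 and 8.56 FPKM in CST skin, against 0.621, 7.94 and 1.07 FPKM in Yoda1 skin. The 14 skeletal muscle markers summed to 14909, 8444 and 15162 FPKM in CST skin, against 134, 6234 and 665 FPKM in Yoda1 skin. Yoda1 mouse 2 was thus the highest Yoda1 library for Tmod1, Ank1 and the muscle markers, as it was for Hba-a1 and Hba-a2 but not for Hbb-bs, Hbb-bt or Alas2. The part of muscle in these 3 genes was not tested.

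Red cell cytoplasm and maturation genes had a median of 0.08, with 8 of 12 tested members positive and Pklr, the red cell pyruvate kinase gene, at 0 throughout. Nt5c3, a pyrimidine nucleotidase gene, had a log2 change of 0.27, the glutathione peroxidase gene Gpx1 -0.27 and the biliverdin reductase gene Blvrb -0.27. In the list of lower glycolysis around Bpgm, 4 of 6 members were positive with a median of 0.23. Pgam2, the muscle phosphoglycerate mutase gene, led it at 140, 141 and 298 FPKM in CST skin, against 2.89, 123 and 9.11 FPKM in Yoda1 skin (adjusted p = 0.753 by limma). Gapdh had a log2 change of 0.69 and Pgk1 one of 0.26.

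Genes that clear haem and haemoglobin were mostly negative, with 2 of 9 tested members positive and a median of -0.35. The exception by unadjusted p was Hmox1, haem oxygenase 1, which breaks down haem and is also induced by oxidative stress. It measured 386, 460 and 273 FPKM in CST skin, against 273, 224 and 137 FPKM in Yoda1 skin, with a slight overlap. Its log2 change was 0.84 with an SE of 0.32 (limma, adjusted p = 1.00). Lrp1, a receptor for haemopexin-bound haem, had a log2 change of -0.55 and the biliverdin reductase gene Blvra -0.35. Of 10 macrophage markers, 9 had a negative log2 change (median -0.53), among them Adgre1 at -0.83 and Fcgr1 at -0.63. The exception was Cd14, the lipopolysaccharide co-receptor gene, at 391.9, 142 and 149 FPKM in CST skin, against 107, 63.2 and 48.7 FPKM in Yoda1 skin (log2 change 1.54, limma adjusted p = 0.640). Of all tested genes, 47.2% had a log2 change above 0. The macrophage markers summed to 1532, 1590 and 1200 FPKM in CST skin, against 2735, 3737 and 910 FPKM in Yoda1 skin. Yoda1 mouse 3 was thus the lowest library of either group for this sum. For iron uptake and storage, 4 of 8 tested genes were positive (median -0.03). Slc40a1, the iron exporter ferroportin, measured 11.7, 11.3 and 14.4 FPKM in CST skin, against 11.2, 5.08 and 7.68 FPKM in Yoda1 skin, with no overlap and a log2 change of 0.64 (adjusted p = 1.00 by limma). Steap3, an iron reductase gene, had a log2 change of -0.50 and the ferritin heavy chain gene Fth1 one of 0.36.

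**Figure D5:**
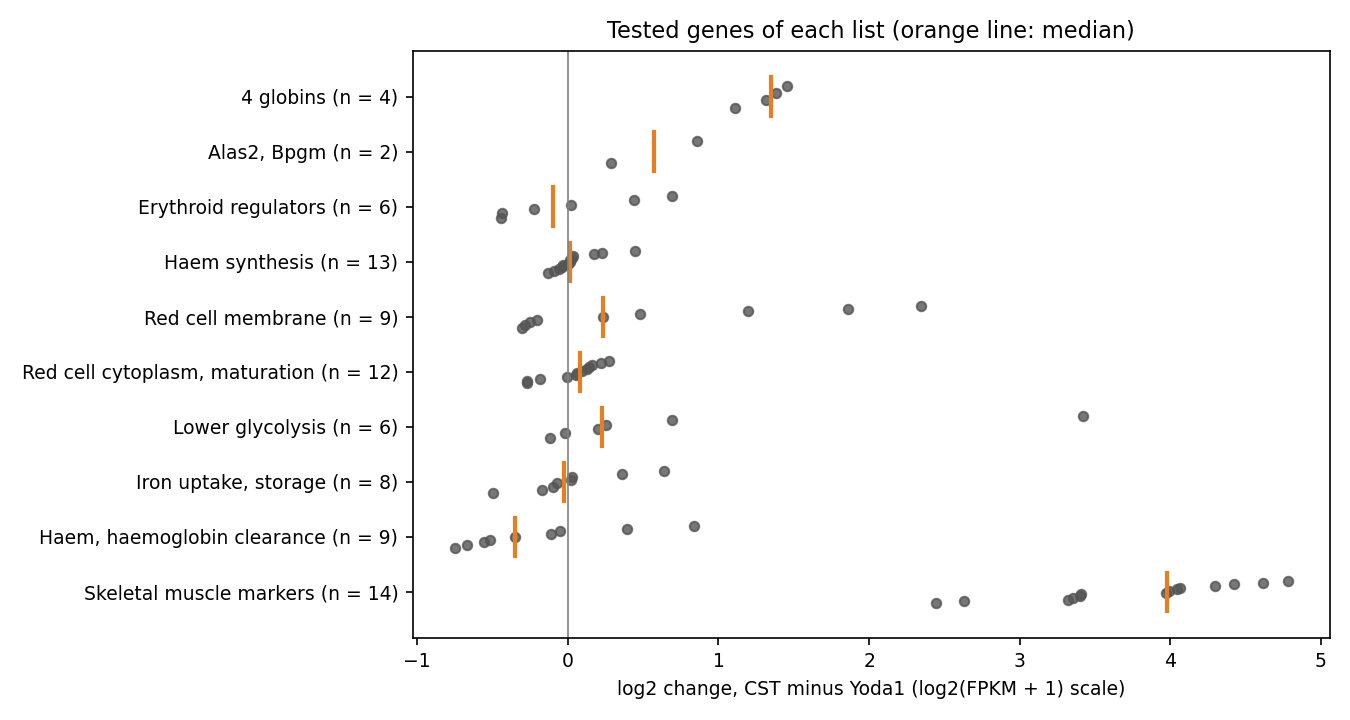
Log2 change of FPKM + 1 (CST minus Yoda1) for the tested genes of each list; each point is 1 gene and orange lines are medians. The 4 globins lie between 1.11 and 1.45, haem synthesis genes near 0 (median 0.01), and the skeletal muscle markers highest (median 3.98). Among red cell membrane genes Sptb lies at 1.19, Ank1 at 1.86 and Tmod1 at 2.34.

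Markers of other cell types were set beside the globins. The 12 platelet markers, of which 3 were tested, summed to 488, 447 and 222 FPKM in CST skin, against 488, 488 and 74.9 FPKM in Yoda1 skin. Ppbp had a log2 change of 2.05, Itga2b -0.48 and Pf4 0.39. Pf4, a gene also made by macrophages, held most of that sum, and Gp1bb was at 0 in all libraries. The 13 neutrophil markers summed to 13592, 2250 and 2253 FPKM in CST skin, against 1873, 836 and 4391 FPKM in Yoda1 skin. S100a9 and S100a8 held most of this sum, with 7553 and 3066 FPKM in CST mouse 1. In Yoda1 mouse 3 they measured 2539 and 1486.5 FPKM. All 12 tested neutrophil markers had a positive log2 change (median 1.07), against 47.2% of all tested genes. Yet CST mouse 1 was highest for the neutrophil markers and CST mouse 2 for globin. Hdc (log2 change 2.47), Trem1 (1.99) and Il1r2 (1.00) had the smallest p among the neutrophil markers. All 14 skeletal muscle markers had a positive log2 change too. Those with the smallest p were Myh4 (log2 change 4.78), Ryr1 (2.44) and Ckm (4.61). In 13 of the 14, each CST library lay above each Yoda1 library, against 4.52% of all tested genes. The r of the muscle markers to the globin mean over the 6 libraries was 0.52 to 0.77 (median 0.72). However, CST mouse 2, highest in globin, was the lowest CST library in the sum of the muscle markers. The same r was 0.03 to 0.56 for neutrophil markers (median 0.36), -0.46 to 0.37 for macrophage markers (median -0.29) and -0.45 to 0.16 for endothelial markers (median 0.02), as a description of libraries that share the group difference. The 12 endothelial markers summed to 170, 381 and 220 FPKM in CST skin, against 370, 329 and 178 FPKM in Yoda1 skin, and 0 of 12 were positive (Eng -0.39, Tek -0.27 and Cdh5 -0.37). The part of any of these cells in the globin difference was not tested.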

How the data were processed

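Total RNA from skin of 6 mice (3 CST, 3 Yoda1, grouped by sample title) had been sequenced. The authors deposited 1 table of FPKM values for 57010 genes. The builds GRCm38 and mm10 are named in the submitters' processing notes; the sources used here name no aligner, counter or strandedness. Of 52081 gene IDs found in GENCODE M21, 2.9% had the deposited start, so positions are those of GENCODE M21 (GRCm38). The members and gene lists were chosen with earlier results of these data known.

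FPKM steps gave the number of reads per library, scaled on 1764 short genes. Whole reads resulted for 30695 of 30697 genes above 0, within 0.0001 reads (relative tolerance 3e-08 at high counts). With deliberately wrong depths 0 of 2000 genes gave whole reads. Intervals cover counting error only, and p-values measure the spread between the mice of a group as labelled.

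Groups were compared on log2(FPKM + 1) with limma 3.58.1 (R 4.3.3, eBayes with trend) in the 14588 genes averaging 1 FPKM or more, two-sided, with Benjamini-Hochberg adjustment over all of them and a threshold of 0.05. Changes are CST minus Yoda1, and the pseudocount of 1 understates those of low genes such as Alas2. Chain ratios are described by their values; exact permutation of 3 against 3 cannot give a two-sided p under 0.1. Alternatives covered pseudocount, filter, scaling, variance model, library weights, voom on recovered reads, the replicate block and leaving out libraries. Genes were named by rule: all members, up to 3 of smallest p per list with a described count, list genes at 0 throughout, and the 10 most like the globin mean. For those 10, Gm, Rik and other clone or predicted names were left out. Hbq1a, Hbq1b, Gata1 and Klf1 were named outside the rule, after their values were seen. Promoter sequences are those of RefSeq on GRCm38.p6, and transcripts those of GENCODE M21.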

Additional observations from a re-analysis of the deposited data

How the results depend on the processing

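Estimated library weights spanned 0.193 (Yoda1 mouse 3) to 12.8 (Yoda1 mouse 1), and their estimation stopped before convergence. Under them 1348 genes passed (655 higher in CST). Among them were 5 members: Hbb-bs, Hba-a1, Hba-a2, Hbb-bt and Alas2 (adjusted p = 0.0168 to 0.0181), and the median of the 7 members was 2.23. The cause was not tested. No member was called under the other 16 alternatives, and each of the 6 tested members kept a positive change in each. With 1 library left out, 0 to 136 genes were called (136 without Yoda1 mouse 2, 8 without CST mouse 2), 0 of them members, and the median of the members ran from 0.65 to 1.48. Same-numbered mice were not treated as paired, since the sample titles give only a mouse number. Their deviations from the group means correlated at -0.08, 0.21 and -0.20, and those of other combinations at -0.34 to 0.34. So few mice cannot settle whether a pairing existed. With the replicate block 0 genes and 0 members were called, and the median of the members was 1.11. Without CST mouse 1 and Yoda1 mouse 3, chosen after seeing the data, the count was 0 and the median 1.40. The alpha to beta ratio averaged 0.368 over the 6 libraries in FPKM and 0.462 in reads. That of Hbb-bs to Hbb-bt was 35.8 in FPKM, 23.5 in reads and 26.3 per kilobase of the longest transcript, because the authors' length for Hbb-bs is a mean that includes short transcripts. The median r of the 21 pairs was 0.76, and 0.48 with group means removed. Depth limits Slc4a1, with 23 reads over the CST libraries and 9 over the Yoda1 libraries, and the other genes with few reads.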
